A study of Drosophila melanogaster with 23 samples.

Results

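Dyneins are motors that walk along microtubules, and the heavy chain is the subunit that binds ATP and makes the force. Cytoplasmic dynein 1 moves cargo, nuclei and chromosomes in nearly every cell, cytoplasmic dynein 2 carries material back from the tip of a cilium, and the axonemal dyneins bend cilia and sperm tails. In the fly, motile axonemes are known from sperm and from the chordotonal neurons that sense sound and stretch. The genes described here are the 7 heavy chain genes with the FlyBase symbols Dhc64C, Dhc93AB, Dhc36C, Dhc62B, Dhc16F, Dhc98D and btv, out of 17659 genes in the count table, and they were chosen by symbol. Dhc64C encodes the heavy chain of cytoplasmic dynein 1, btv (beethoven) that of cytoplasmic dynein 2, and the other 5 are axonemal. The choice of this family was made with an earlier reading of LaminB KD in view, in which Dhc93AB had risen. All values of these genes in LaminB KD are therefore given as a description, with no test.

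Newly made RNA was captured from Kc167 cells (Kc cells), which the labels describe as a female embryonic line of the dorsal closure stage. Cells took up 5-ethynyl uridine at 0.2 mM for 1 h, the labelled RNA was linked to biotin and pulled out on beads, and stranded libraries were read as single 50 bp ends (neuRNA-seq). Experiment 1 compared 3 AGO2 KD libraries (siRNA) and 3 LaminB KD libraries (dsRNA) with 3 mock libraries. Experiment 2 compared 2 libraries each of si5UTR (an siRNA against the 5′UTR of AGO2), si5UTR+AGO2 (that siRNA with a tagged wildtype AGO2 construct) and si5UTR+V966M (that siRNA with a tagged catalytic mutant) with 2 mock libraries. Experiment 3 compared 3 Dcr-2 KD libraries (dsRNA) with 3 mock libraries. Mock cells were transfected without RNA, all cells are of 1 line, and the submitters call the replicates biological.

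Library totals ran from 5215481 to 15641835 reads. Each targeted gene was lower in its own knockdown: Lam, the gene of LaminB, by edgeR had a log2 fold change of -1.63 in LaminB KD, AGO2 of -0.47 in AGO2 KD and -0.91 with si5UTR, and Dcr-2 of -0.53 in Dcr-2 KD. These values are of new RNA and do not measure how far each protein was depleted, which the authors checked by Western blot. The Dcr-2 value passed at an edgeR adjusted p of 0.0592 and did not pass with Dcr-2 KD replicate 1 or any 1 mock library left out (-0.58 to -0.52). All 7 haemocyte markers looked at had reads, and their summed level was 7633 to 7784 CPM in LaminB KD and 6211 to 6561 CPM in AGO2 KD, against 6522 to 6987 CPM in mock of experiment 1. The reads were mainly of srp (464118 over all libraries), ush (451316), Hml (399503) and Pxn (202175). By contrast Col4a1 had 6259, vkg 3389 and NimC1 only 25, so the sum does not stand for all 7. Of the 6 haemocyte markers tested, 4 rose and 0 fell in LaminB KD, and 1 rose and 2 fell in AGO2 KD. Among all 8142 genes tested, 1356 rose and 1018 fell in LaminB KD, and 645 rose and 189 fell in AGO2 KD. CPM is reads scaled to a common TMM-normalised library size, set within each experiment.

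The members share the motor's ATP-binding loops, and 24 coding bases of the first of these loops are shown here because they let the genes be compared base by base over a stretch every heavy chain keeps. Capitals mark bases that differ from Dhc64C, and each run is the coding strand, 5′ to 3′, read from the fly Release 6 genome (dm6).
Dhc64C, chr3L:4817857-4817880: ggacctgccggtactggaaaaaca
Dhc93AB, chr3R:21035064-21035087: ggTccAgccggAacCggaaaGacC
Dhc36C, chr2L:17507817-17507840: ggTcctgccggCactggCaaaacG
Dhc62B, chr3L:1767669-1767692: ggacctgcTggAacGggaaaaacG
Dhc16F, chrX:18069481-18069504: ggaccAgccggAactggCaaGacC
Dhc98D, chr3R:28503200-28503223: ggaccAgcTggAacGggTaaaacG
btv, chr2L:17976626-17976649: ggCccGgcTggCacAggaaaGacG
Of the 24 bases, 17 (btv) to 20 (Dhc36C and Dhc62B) were the same as in Dhc64C, with Dhc93AB at 18. Each stretch was found by reading the coding sequence in frame for the loop's motif, so loop and frame are kept by construction. Even so the genes are far enough apart to be told apart by their reads. Cut into every possible 50-base word, the bodies of Dhc64C, Dhc93AB, Dhc36C, Dhc62B, Dhc16F and Dhc98D held 0 words found elsewhere in the genome, btv held 14 (0.0707%), and no word was shared between these heavy chains.

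All 7 are long genes. On dm6 Dhc64C lies at chr3L:4807368-4825687 (minus strand, 18.3 kb) and Dhc93AB at chr3R:21024580-21042499 (minus strand, 17.9 kb), with 79.7% and 78.2% of their length in exons. Dhc36C lies at chr2L:17501401-17525515 (plus strand, 24.1 kb), Dhc62B at chr3L:1759172-1771758 (minus strand, 12.6 kb), Dhc16F at chrX:18064483-18078472 (plus strand, 14.0 kb), Dhc98D at chr3R:28486953-28519398 (plus strand, 32.4 kb) and btv at chr2L:17962625-17982472 (minus strand, 19.8 kb). Reads were counted by strand over whole gene bodies, introns included, so levels of different genes are set side by side only per kb. The 3′ end of Dhc64C overlaps CG18808 on the same strand, where reads can be lost to either gene. Dhc36C, Dhc62B and btv each have a gene on the opposite strand, which the stranded counting keeps apart.

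The 7 genes fell into 3 tiers in mock cells. Over the 8 mock libraries Dhc64C averaged 42.4 ± 1.75 CPM per kb (SD, n = 8), Dhc62B 4.72 ± 0.741 and Dhc93AB 0.0813 ± 0.0586. Below them stood btv at 0.0441 ± 0.0564 CPM per kb, Dhc36C at 0.0362 ± 0.0535, Dhc98D at 0.0155 ± 0.0173 and Dhc16F at 0.00432 ± 0.0102. The ranges of Dhc64C and Dhc62B did not meet each other, nor did those of Dhc62B and Dhc93AB, and the mean of Dhc64C was 8.99 times that of Dhc62B, which was 58.1 times that of Dhc93AB. From Dhc93AB down, each gene's range overlapped that of the next, so these 5 have no clear order. The mock libraries come from 3 experiments that were normalised separately.

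**Figure D1:**
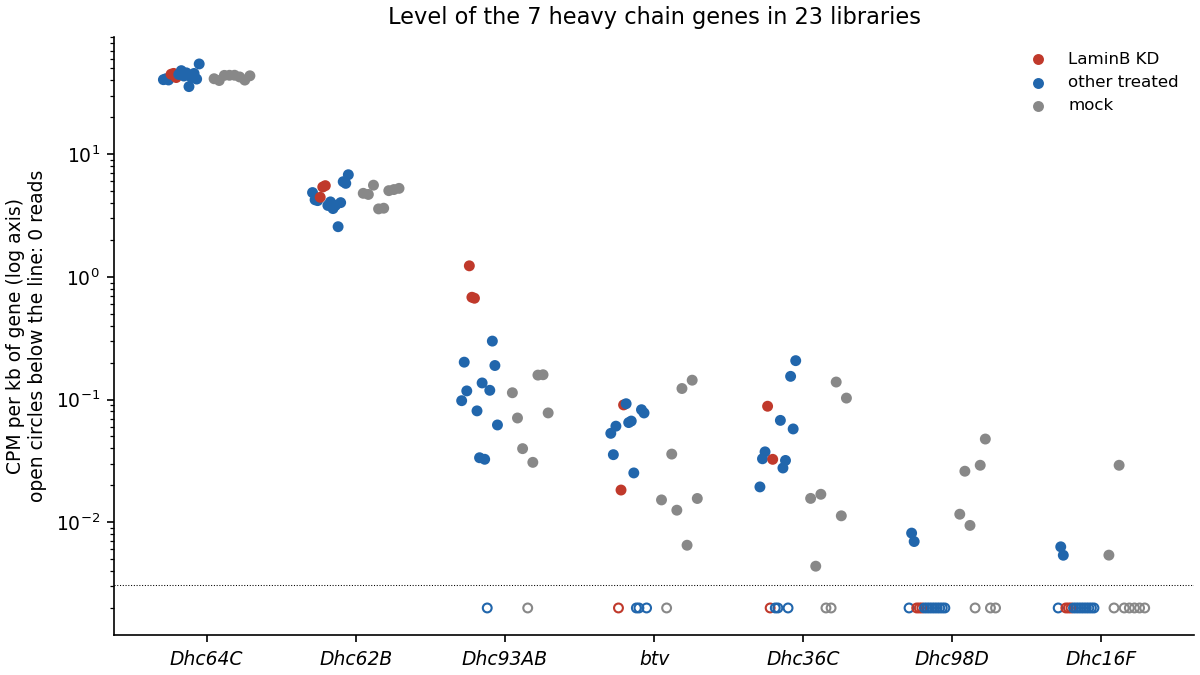
Level of each heavy chain gene in CPM per kb of gene (log axis) in the 23 libraries, treated libraries left and mock libraries right of each gene's position, with open circles for libraries with 0 reads. Dhc64C and Dhc62B form separate high bands, Dhc93AB stands above its other libraries in the 3 LaminB KD libraries (red), and Dhc98D and Dhc16F are at 0 in most libraries.

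In reads, Dhc64C had 4867 to 12324 per library, Dhc62B 428 to 809, and both were seen in all 23 libraries. Dhc93AB had 745 reads in all, in 21 libraries, and 405 of them came from the 3 LaminB KD libraries. Dhc36C had 201 reads in 17 libraries, btv 195 in 18, Dhc98D 46 in 7 and Dhc16F 7 in 4. Only Dhc64C, Dhc93AB and Dhc62B passed the filter on low counts in experiment 1, joined by btv in experiment 2 and by btv and Dhc36C in experiment 3, so Dhc16F and Dhc98D were tested nowhere. A bulk library cannot tell more labelled RNA per cell from more cells that make it.

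Dhc93AB, an axonemal chain needed in the fly for the moving cilia of the auditory organ, had the largest fitted change in LaminB KD of the 3 members that could be fitted. It had 197, 101 and 107 reads in the LaminB KD libraries, against 27, 12 and 7 in mock. In CPM these were 22.1, 12.2 and 12.0 in LaminB KD, against 2.04, 1.27 and 0.713 in mock. The lowest LaminB KD library was above the highest mock library, and replicate 1 was the highest of its group. LaminB KD averaged 15.4 ± 5.74 CPM, against 1.34 ± 0.665 CPM for mock (SD, n = 3 each), and the fitted log2 fold change was 3.48 (SE 0.428), an 11.2-fold difference. Leaving out any 1 library of the experiment gave 3.13 to 3.94. Relative to AGO2 KD, with 2.49 ± 0.988 CPM (SD, n = 3), the log2 fold change in LaminB KD was 2.61 (SE 0.401), and it was the 1 of 3 fitted members past the threshold in that comparison, beside 20.3% of all genes. The LaminB KD values that the choice of the family rested on enter it, so nothing is read from that count.

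Even in LaminB KD the gene stayed far below the cytoplasmic chain. Per kb it reached 1.94% ± 0.695 of Dhc64C in LaminB KD and 0.181% ± 0.0925 in mock (SD, n = 3 each), and the highest single library, LaminB KD replicate 1, stood at 2.74%. Dhc62B, another axonemal chain, was at 11.6% ± 1.62 of Dhc64C in LaminB KD and 12.1% ± 0.595 in mock (SD, n = 3 each). Dhc93AB thus remained below Dhc62B per kb in every library.

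Dhc64C, which cells need for division and transport, was nearly level in LaminB KD. It had 822, 835 and 773 CPM in LaminB KD, against 756, 731 and 805 CPM in mock, and the groups overlapped. Its log2 fold change was 0.08 (SE 0.0528), and it was -0.14 once a trend of the libraries with gene length was removed, so its sign in LaminB KD depends on that correction. Dhc62B had 56.1, 68.0 and 69.8 CPM in LaminB KD, against 60.4, 59.2 and 70.4 CPM in mock, with a log2 fold change of 0.03 (SE 0.115), or -0.14 with the length trend removed. Dhc93AB was at 3.26 under the same correction. Of the 3 members fitted in LaminB KD 1, Dhc93AB, was past the threshold, beside 29.2% of all 8142 genes tested, and nothing is read from this count since the family was chosen on that value.

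**Figure D2:**
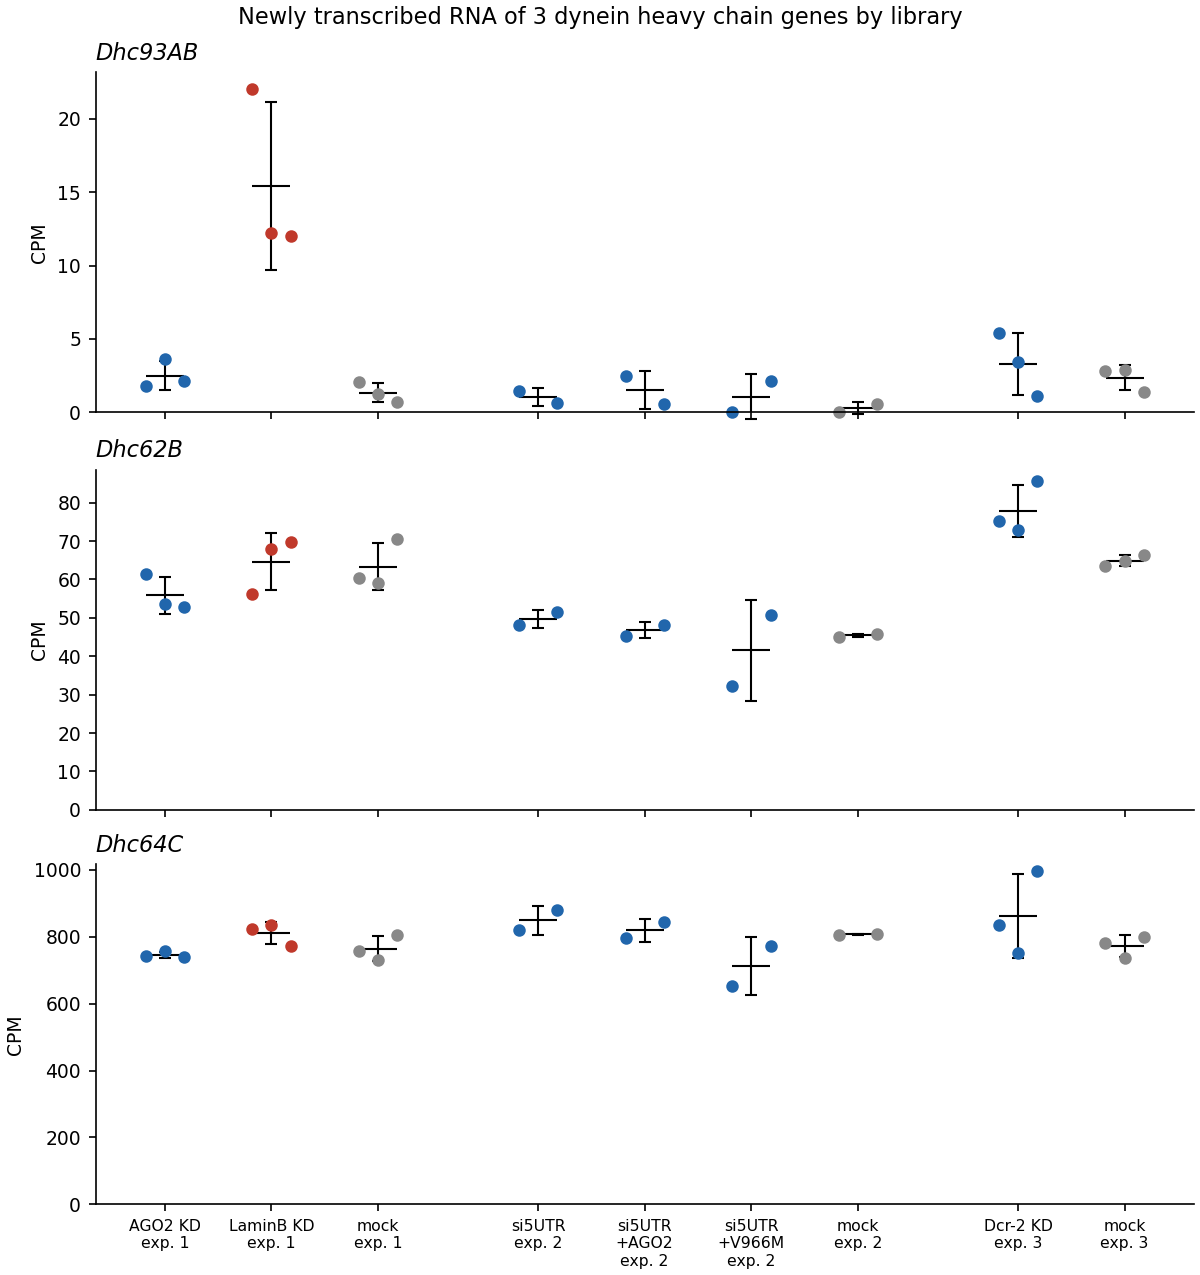
CPM of Dhc93AB, Dhc62B and Dhc64C in each library (points; axes start at 0), with the mean and SD of each group (bar and whiskers), treated groups (LaminB KD red, the others blue) left of the mock group (grey) of their experiment. Dhc93AB is at 12.0 to 22.1 CPM in LaminB KD and at 5.37 CPM or below in all other groups, while Dhc64C stays between 652 and 997 CPM.

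The 4 members too low to be tested in experiment 1 had few reads in both groups. Dhc36C, an axonemal chain, had 19, 0 and 7 reads in LaminB KD, against 5, 1 and 4 in mock. The ciliary chain btv, known in the fly for its part in hearing, had 0, 3 and 16 reads in LaminB KD, against 4, 0 and 7 in mock. For Dhc36C the LaminB KD libraries lay on either side of the mock range, and for btv the groups overlapped. Dhc98D had 0 reads in all 3 LaminB KD libraries, against 5, 8 and 3 in mock. With a floor of 3 reads set for the LaminB KD group, mock was 4.28 times as high. That ratio leaves out the counting error of the mock reads and the spread between libraries. Dhc16F had 0 reads in the 3 LaminB KD libraries, against 1, 0 and 4 in mock.

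AGO2 KD did not move any member past the threshold. Dhc93AB had 15, 41 and 28 reads in AGO2 KD, or 1.75, 3.62 and 2.11 CPM, against 2.04, 1.27 and 0.713 CPM in mock, the same mock libraries as for LaminB KD. The groups overlapped through AGO2 KD replicate 1 and mock replicate 1. The log2 fold change was 0.86 (SE 0.445, edgeR adjusted p 0.302), and it was 0.50 to 1.33 with 1 library left out. Dhc64C had 743, 756 and 738 CPM in AGO2 KD, against 756, 731 and 805 CPM in mock, so that the log2 fold change was -0.03 (SE 0.0527, edgeR adjusted p 0.767). Dhc62B had 61.3, 53.5 and 52.7 CPM in AGO2 KD, against 60.4, 59.2 and 70.4 CPM in mock (log2 fold change -0.18, SE 0.115, edgeR adjusted p 0.406). None of the 3 tested members was called by edgeR or DESeq2, and 0 had an unadjusted p under 0.05, where edgeR called 10.2% of all genes tested.

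Among the low members of AGO2 KD, Dhc36C had 4, 9 and 12 reads, against 5, 1 and 4 in mock. In reads these groups overlapped. In CPM they did not, at 0.468 to 0.903 in AGO2 KD, against 0.106 to 0.408 in mock. The ciliary chain btv had 9, 8 and 16 reads, against 4, 0 and 7 in mock. For btv every AGO2 KD library was above every mock library in reads, and in CPM the lowest AGO2 KD value was 0.705 and the highest mock value 0.713, so the groups met. Dhc98D had 0, 3 and 3 reads in AGO2 KD, against 5, 8 and 3 in mock, and in CPM it did not overlap either, at 0 to 0.265 in AGO2 KD, against 0.306 to 0.845 in mock. None of these genes was tested, for low counts. How many of all genes did not overlap was not computed, so nothing is read from the gaps. Dhc16F had 0, 1 and 1 reads in AGO2 KD, against 1, 0 and 4 in mock.

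Depletion of AGO2 through its 5′UTR also left the high members near their mock level. Dhc64C had 819 and 879 CPM in si5UTR, against 806 and 807 CPM in mock. Its log2 fold change was 0.07 (SE 0.0901, edgeR adjusted p 0.956). Dhc62B had 48.1 and 51.5 CPM in si5UTR, against 45.1 and 45.7 CPM in mock (log2 fold change 0.13, SE 0.226, edgeR adjusted p 0.983). For both genes the 2 si5UTR libraries were above the 2 mock libraries, by less than the spread the fit estimates. The share of all genes that separate in this way was not computed, so nothing is read from it. None of the 4 members tested was called by edgeR or DESeq2, and 0 had an unadjusted p under 0.05, beside 1.23% of all genes called.

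Dhc93AB was near its floor in experiment 2. It had 15 and 7 reads in si5UTR, 24 and 7 in si5UTR+AGO2 and 0 and 34 in si5UTR+V966M, against 0 and 7 in mock. The mock library without reads sets the size of the fitted change, which was 1.85 in si5UTR (SE 2.48, edgeR adjusted p 0.965), 0.89 with mock replicate 7 left out and 6.67 with mock replicate 8 left out. In si5UTR+V966M one library had 0 reads and the other more than any other library of experiment 2. btv had 19 and 15 reads in si5UTR, 13 and 6 in si5UTR+AGO2 and 0 in both si5UTR+V966M libraries, against 3 and 31 in mock. With a floor of 3 reads set for the si5UTR+V966M group, btv in mock was 13.9 times as high. That ratio leaves out the spread between libraries, and mock replicate 8 alone held 31 of the 34 mock reads. The edgeR adjusted p of btv in si5UTR+V966M relative to mock was 0.482. Dhc36C had 0 reads in both si5UTR libraries, 16 and 8 in si5UTR+AGO2 and 11 and 0 in si5UTR+V966M, against 0 in both mock libraries.

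The construct libraries ask whether AGO2 brought back, with or without its catalytic function, changes a gene relative to the siRNA alone. Dhc64C had 795 and 844 CPM in si5UTR+AGO2, against 819 and 879 CPM in si5UTR, which gave -0.05 on the log2 scale (SE 0.0901, edgeR adjusted p 0.986). It had 652 and 773 CPM in si5UTR+V966M, below both si5UTR libraries, and the change relative to si5UTR was -0.25 on the log2 scale (SE 0.0901, edgeR adjusted p 0.417, unadjusted p 0.00994). DESeq2 called that difference (-0.25), as did edgeR without si5UTR+V966M replicate 3 (-0.39), so the lower level rests largely on replicate 2, which was also the lowest library of all for Dhc62B (32.3 CPM). For Dhc64C the 2 groups, of 2 libraries each, did not overlap. How many of all genes did not overlap was not computed, so nothing is read from that. In si5UTR+V966M relative to si5UTR edgeR called 0.264% of all genes and 0 of the 4 members tested, 2 of which had an unadjusted p under 0.05. There btv was at -7.28 on the log2 scale, with 0 reads in si5UTR+V966M against 34 in si5UTR. Relative to mock, edgeR and DESeq2 called 0 members in si5UTR+AGO2 and si5UTR+V966M, where 0.149% and 0.63% of genes were called, and btv in si5UTR+V966M was the 1 member with an unadjusted p under 0.05. Between si5UTR+AGO2 and si5UTR, and between si5UTR+V966M and si5UTR+AGO2, edgeR and DESeq2 called 0 members, beside 0.63% and 0.16% of genes. In these last 2 comparisons the unadjusted p was under 0.05 for Dhc64C and btv, both in si5UTR+V966M relative to si5UTR+AGO2 (log2 fold change -0.20 and -6.51).

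Dcr-2 KD gave no called member either. Dhc62B had 75.2, 72.8 and 85.6 CPM in Dcr-2 KD, against 63.5, 64.9 and 66.3 CPM in mock. The groups did not overlap and all 3 Dcr-2 KD libraries were higher, by 0.26 on the log2 scale (SE 0.121, edgeR adjusted p 0.385). The share of all genes without overlap was not computed, so nothing is read from the gap. Dhc64C had 835, 751 and 997 CPM in Dcr-2 KD, against 781, 737 and 799 CPM in mock (log2 fold change 0.16, SE 0.0945, edgeR adjusted p 0.526), and replicate 3 was the highest of all 23 libraries for both genes, over experiments that were normalised separately. Dhc93AB had 5.37, 3.40 and 1.11 CPM in Dcr-2 KD, against 2.84, 2.86 and 1.39 CPM in mock, a fitted change of 0.48 on the log2 scale (SE 0.705, edgeR adjusted p 0.832) that became -0.06 without Dcr-2 KD replicate 1. Of the 5 members tested edgeR and DESeq2 called 0, and 1 (Dhc62B) had an unadjusted p under 0.05, beside 2.02% of all genes called.

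Experiment 3 also held the highest levels of Dhc36C. It had 25, 9 and 27 reads in Dcr-2 KD, against 26, 2 and 16 in mock, with a fitted change of 0.72 on the log2 scale (SE 0.817, edgeR adjusted p 0.766). Its mock libraries thus ranged from 0 reads in experiment 2 to 26 in experiment 3, and mock replicate 11 of the same experiment had 2. btv had 11, 10 and 0 reads in Dcr-2 KD, against 1, 21 and 2 in mock (log2 fold change -0.02, SE 1.19, edgeR adjusted p 0.996). Dhc98D had 0 reads in Dcr-2 KD, against 12, 0 and 0 in mock, and Dhc16F had none in experiment 3.

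**Figure D3:**
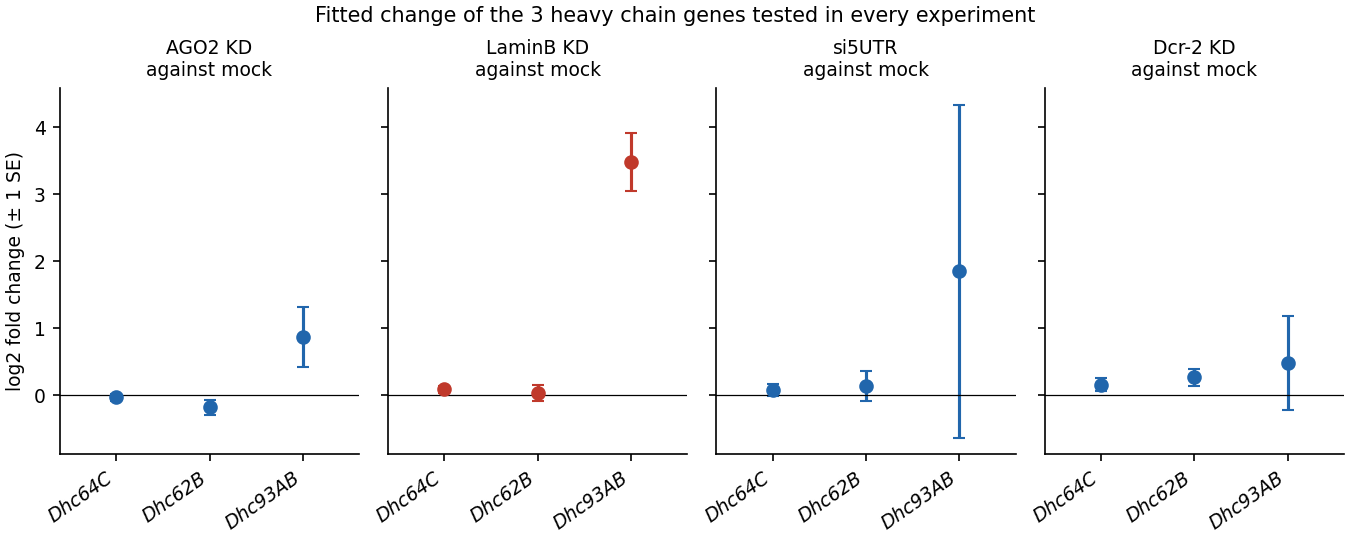
Fitted log2 fold change (± 1 SE) of Dhc64C, Dhc62B and Dhc93AB in AGO2 KD, LaminB KD, si5UTR and Dcr-2 KD, each against the mock libraries of its experiment. Dhc64C and Dhc62B lie between -0.18 and 0.26 in all 4, and Dhc93AB is at 3.48 in LaminB KD with an SE that is widest, 2.48, in si5UTR.

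Whether a member responded differently to 2 treatments was tested with each treatment set against its own mock libraries. For AGO2 KD minus Dcr-2 KD the difference in log2 fold change was 0.39 for Dhc93AB (SE 1.17, edgeR adjusted p 0.940), -0.19 for Dhc64C (SE 0.108, edgeR adjusted p 0.484) and -0.44 for Dhc62B (SE 0.196, edgeR adjusted p 0.313). None was called by edgeR or DESeq2, where 3.62% of all genes were, and Dhc62B was the 1 with an unadjusted p under 0.05. For Dhc64C the difference was -0.45 and called with the length trend removed. For AGO2 KD minus si5UTR, where 0.0956% of genes were called, the differences were -0.94, -0.11 and -0.32 in the same gene order, with edgeR adjusted p of 0.935, 0.887 and 0.764. For LaminB KD minus Dcr-2 KD, given as a description, Dhc93AB stood at 3.00 (SE 1.17) and was not past the threshold, in a comparison where 10.2% of genes were called. It was at 2.98 with no filter and 3.06 with DESeq2. With 1 library left out it ranged from 2.6 (without Dcr-2 KD replicate 3) to 3.55 (without Dcr-2 KD replicate 1).

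The tested genes beside Dhc93AB were not called in LaminB KD. peg, which starts on the same strand 417 bp past the 3′ end of Dhc93AB, had 36.2, 21.8 and 26.6 CPM in LaminB KD, against 24.6, 22.5 and 25.6 CPM in mock (log2 fold change 0.22, SE 0.172, edgeR adjusted p 0.398). In AGO2 KD peg had 42.2, 55.4 and 53.6 CPM and rose (log2 fold change 1.06, SE 0.169, edgeR adjusted p 0.000637). Dhc93AB and peg thus differed in which knockdown gave their larger value. Rlip, a Ral-interacting protein gene on the opposite strand 3.83 kb away, was at -0.26 in LaminB KD (edgeR adjusted p 0.210), and at -0.40 and called without LaminB KD replicate 1. The other 4 neighbours examined were too low to be tested: CG12278 had 0 reads and CG5697, CG31189 and CG31207 had 57, 55 and 48 reads in the 23 libraries together. CG31189 was at 0.605 to 2.13 CPM in LaminB KD, against 0 to 0.0754 CPM in mock.

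Around Dhc64C, which was not called in LaminB KD, 3 neighbours were called up, in a comparison where 1356 of all 8142 genes tested rose. CG7509, on the same strand 2.09 kb past its 3′ end, was at 4.60 to 8.85 CPM in LaminB KD, against 1.48 to 3.46 CPM in mock (log2 fold change 1.31, edgeR adjusted p 0.0384). CG18808, which overlaps the 3′ end of Dhc64C, rose by 1.02 (edgeR adjusted p 0.0473), and LeuRS-m, the mitochondrial leucyl-tRNA synthetase gene 166 bp from its start, rose by 0.34 (edgeR adjusted p 0.0772). These 3 calls were each lost with 1 or more single libraries left out, at 1.02 to 1.03 for CG7509 (without LaminB KD replicate 1 or mock replicate 2), 0.96 for CG18808 (without LaminB KD replicate 3 or mock replicate 1) and 0.18 to 0.38 for LeuRS-m (without LaminB KD replicate 1 or any 1 mock library). CG13708, CG13707, lncRNA:CR44528 and lncRNA:CR45740 had 10 to 26 reads each in all libraries together.

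**Figure D4:**
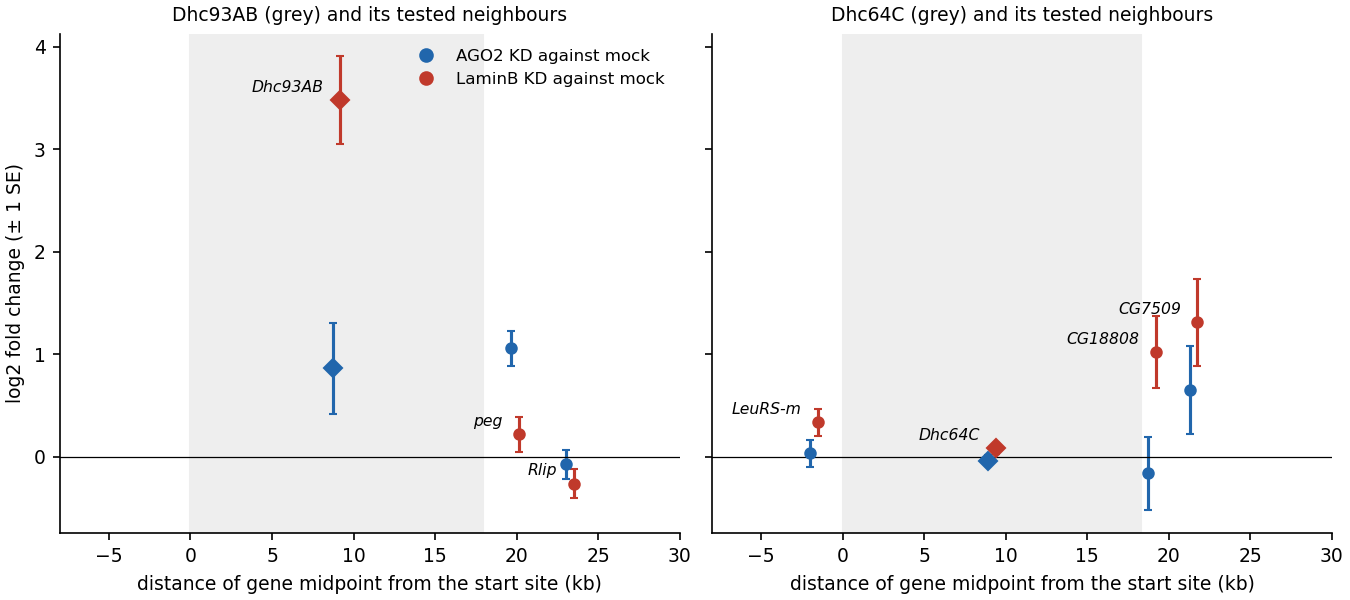
Log2 fold change (± 1 SE) of Dhc93AB and Dhc64C (diamonds, gene body in grey) and of their tested neighbours (circles) against the distance of each gene's midpoint from the start site in kb, in AGO2 KD and LaminB KD against mock. Dhc93AB stands at 3.48 in LaminB KD beside peg at 0.22, and Dhc64C at 0.08 beside CG7509 at 1.31.

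The partners of dynein were next compared, by lists of genes. Of the 6 other subunits of cytoplasmic dynein 1, 5 were tested. In LaminB KD, where 29.2% of all genes were called, 1 of them was called up and 1 down. These were sw (short wing), the intermediate chain, at 0.35 (edgeR adjusted p 0.00817) and Dlc90F, a light chain, at -0.42 (edgeR adjusted p 0.0262), and Dlc90F was not called with the length trend removed (-0.25). In AGO2 KD, si5UTR and Dcr-2 KD 0 of these 5 were called by edgeR (1, 0 and 1 at an unadjusted p under 0.05). Dlc90F was at 0.31 in AGO2 KD (edgeR adjusted p 0.158), and edgeR called it up with no filter (0.31) and without AGO2 KD replicate 1 (0.44). The list of dynactin, the cofactor that lets dynein 1 run over long distances, and of dynein regulators held no called gene. All 17 of 17 genes were tested and edgeR called 0 in each of the 4 knockdowns (1 in AGO2 KD and 1 in LaminB KD at an unadjusted p under 0.05). The median log2 fold change was 0.01 in LaminB KD and -0.02 in AGO2 KD. The summed level of these 17 genes was 1315 to 1348 CPM in LaminB KD and 1328 to 1364 CPM in AGO2 KD, against 1325 to 1347 CPM in mock.

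The genes of ciliary transport were compared in the same way. Of 17 genes of cytoplasmic dynein 2 and intraflagellar transport 10 were tested in experiment 1, and 2 rose and 0 fell in both LaminB KD and AGO2 KD. Over all 8142 genes tested 1356 rose and 1018 fell in LaminB KD, and 645 rose and 189 fell in AGO2 KD. nompB, a core component of the transport particle, averaged 46.6 ± 5.70 CPM in LaminB KD and 20.9 ± 1.39 CPM in AGO2 KD, against 11.9 ± 2.53 CPM in mock (SD, n = 3 each). Neither knockdown overlapped with mock, and the log2 fold change was 1.96 in LaminB KD (SE 0.170, edgeR adjusted p 8.0e-07) and 0.80 in AGO2 KD (SE 0.170, edgeR adjusted p 0.00655). rempA, a component of the complex for return transport, rose by 0.46 in LaminB KD (edgeR adjusted p 0.0194) and 0.39 in AGO2 KD (edgeR adjusted p 0.0918), and neither call held without mock replicate 2 (0.30 and 0.24). The AGO2 KD call of rempA was also lost without any 1 AGO2 KD library, mock replicate 1, LaminB KD replicate 2 or LaminB KD replicate 3 (0.35 to 0.46). In si5UTR 0 of 12 and in Dcr-2 KD 0 of 10 tested genes of the list were called by edgeR (0 and 2 at an unadjusted p under 0.05), nompB being at 0.73 (edgeR adjusted p 0.603) and -0.78 (edgeR adjusted p 0.133). In Dcr-2 KD edgeR called nompB down with no filter (-0.79). The median over the list was 0.20 in LaminB KD and 0.11 in AGO2 KD, both set against 1 set of mock libraries, beside -0.00487 and -0.00478 over all genes tested.

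The remaining parts of an axoneme were scarce. Of 12 genes for axonemal intermediate and light chains and assembly factors, 4 were tested in experiment 1 and edgeR called 0 (0 at an unadjusted p under 0.05), and their summed level was 8.51 to 12.8 CPM in LaminB KD and 3.63 to 9.71 CPM in AGO2 KD, against 5.92 to 12.1 CPM in mock. Rfx, a transcription factor of ciliary genes, was at 0.18 in LaminB KD (edgeR adjusted p 0.433) and 0.26 in AGO2 KD (edgeR adjusted p 0.358). Of the 5 other heavy chain genes in the table (kl-2, kl-3, kl-5, Dnah3 and CG3339) 3 were tested in experiment 1 and edgeR called 0 (0 at an unadjusted p under 0.05), and 0 were called in si5UTR or Dcr-2 KD (0 and 1). The Y-linked sperm chains kl-2, kl-3 and kl-5 had 2 to 175 reads in every library although the line is labelled female. Of the 50-base words in their bodies 38.9% to 52.4% occur more than once in the genome, and the part of this in their counts was not tested. Dnah3 had 146 reads and CG3339 75 reads in the 23 libraries.

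**Figure D5:**
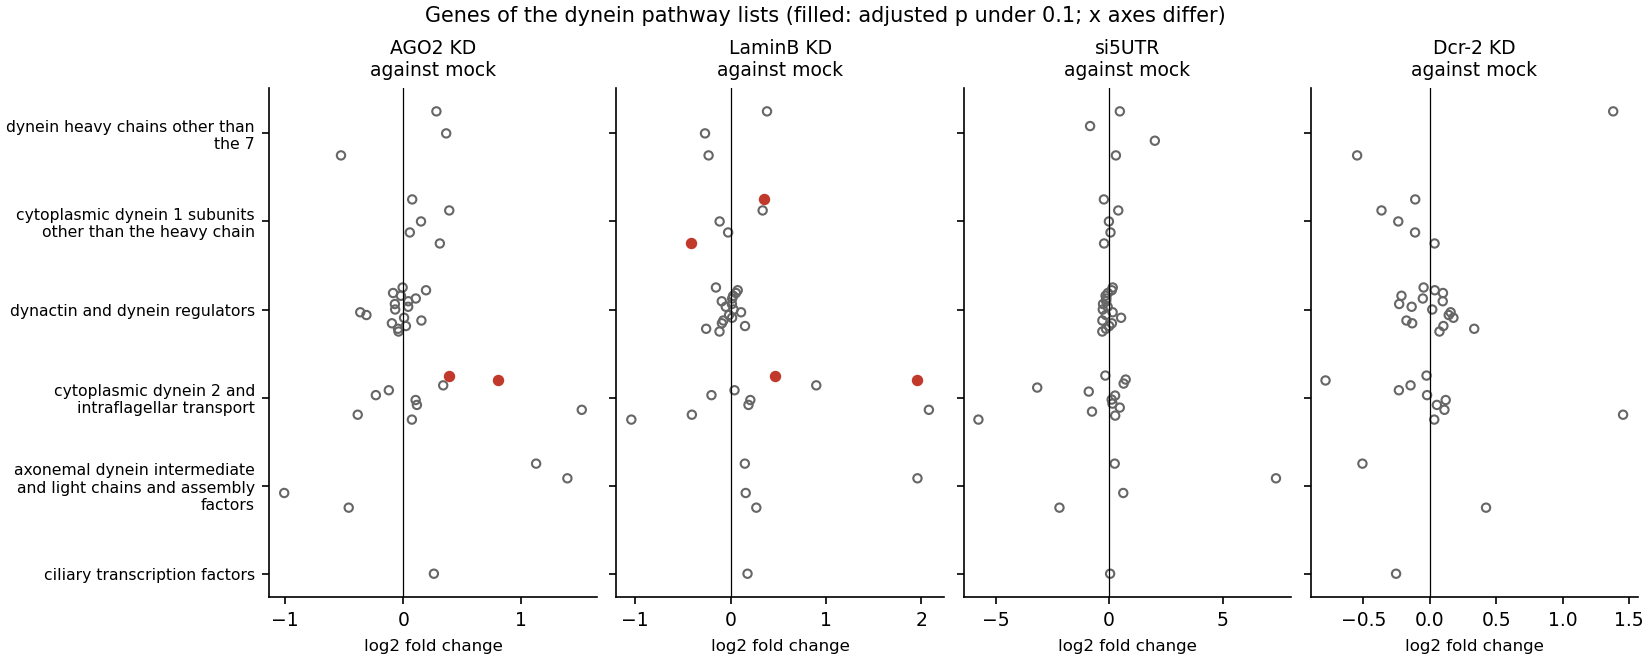
Log2 fold change of each tested gene of the pathway lists in AGO2 KD, LaminB KD, si5UTR and Dcr-2 KD against mock, with genes at an edgeR adjusted p under 0.1 filled; the x axes differ in range. The filled points are nompB and rempA in AGO2 KD, and nompB, rempA, sw and Dlc90F in LaminB KD.

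Markers of the cells that normally build axonemes were examined beside Dhc93AB. The 6 markers of chordotonal and ciliated sensory neurons had a summed level of 1.34 to 5.61 CPM in LaminB KD and 1.59 to 2.69 CPM in AGO2 KD, against 0.917 to 1.51 CPM in mock. Of these, iav, a channel of the chordotonal cilium, was the 1 tested. Its level was 1.34 to 3.27 CPM in LaminB KD, against 0.509 to 0.905 CPM in mock (log2 fold change 1.63, edgeR adjusted p 0.134, unadjusted p 0.0444). These groups did not overlap, but the share of all genes without overlap was not computed, so nothing is read from that. In LaminB KD ato and nompA had 0 reads in all 3 libraries, and in mock they had 1 and 0 reads. The 10 male germ line markers summed to 67.1 to 86.6 CPM in LaminB KD, against 71.4 to 76.5 CPM in mock, and edgeR called 0 of the 4 tested. Their reads over all libraries were mainly of mia (8367), twe (5097), bam (1440) and aly (1353). By contrast can had 82, sa 70, Mst87F 2, dj 1, and fzo and Mst84Da 0, so the sum does not stand for the whole list. Of the 5 general neuronal markers 4 were tested and 3 rose in LaminB KD, among them brp, a protein of the active zone, by 1.59 (edgeR adjusted p 3.6e-09), and the summed level was 307 to 322 CPM in LaminB KD, against 160 to 168 CPM in mock. In AGO2 KD 3 of the 4 rose as well, with a sum of 217 to 243 CPM. Among all 8142 genes tested, 1356 rose in LaminB KD and 645 in AGO2 KD. With the length trend removed the calls of elav in LaminB KD (0.14) and of brp in AGO2 KD (0.17) were lost, which leaves 2 in each. The neuronal and haemocyte sums were thus both higher in LaminB KD than in mock, as Dhc93AB was, and the part of these markers in the level of Dhc93AB was not tested.

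Over the 23 libraries, after the mean of the mock libraries of each experiment was taken off log2 CPM, the 5 of 7578 genes most like Dhc93AB were Ncc69, a cation chloride cotransporter gene (Pearson r 0.81), a (0.80), CG9967 (0.79), Stacl (0.78) and Ide (0.78). Ncc69 averaged 34.5 CPM in LaminB KD and 19.1 CPM in AGO2 KD, against 15.9 CPM in mock of experiment 1. The 5 most like Dhc64C were CG4554 (0.80), Polr3A, a subunit of RNA polymerase III (0.80), Trap1, a mitochondrial chaperone (0.79), CG42382 (0.79) and INPP5E (0.79). The libraries share depth and treatment, so these values only describe likeness.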

How the data were processed

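The authors trimmed reads with cutadapt 1.10, mapped them to dm6 with HISAT2 2.0.4 and counted them by strand over gene bodies of FlyBase release 6.11 with featureCounts 1.5.0-p3 (versions per the submitters' notes). The deposited values are raw counts for 17659 genes, of which 17464 had a symbol and position in the annotation used here (Ensembl 115). The counting options the paper lists for these libraries include none for multi-mapped reads, and such reads are not otherwise described. Reads carry no molecular identifiers.

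Each experiment was fitted with edgeR 4.0.16 (R 4.3.3), treatment as the only term, the filterByExpr filter, TMM normalisation and a quasi-likelihood test. A gene was called at a Benjamini-Hochberg adjusted p under 0.1, over all genes tested. SE is the absolute log2 fold change over the square root of F. Interactions used all 23 libraries in 1 fit. Likeness used a pseudocount of 0.1 CPM. The floor is 3 reads and covers only the counting error of the group at 0. The fits were tested on simulated data. No replicate was a repeat of another (chi-square over its degrees of freedom 6.95 to 28.3 in 19 pairs). Alternatives were RLE size factors, no filter, DESeq2 1.42.0, a threshold of 0.05, only the 2 groups, a gene length correction, each library left out, a replicate block and total counts for levels.

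The members, lists and tests were chosen with earlier results of these data known. Named genes were the members, the targets, up to 2 called genes per direction and list, the 3 nearest genes on each side of Dhc93AB and Dhc64C (with the overlapping gene) and the 5 most alike; other names (markers, uncalled list genes) were added after their values were seen. CG9492 and Heatr2 were not analysed here.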

Additional observations from a re-analysis of the deposited data

Results flagged for a closer look

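Dhc16F stood out in 1 mock library. In mock replicate 3 it had 0.408 CPM from 4 reads, and the next highest of the 8 mock libraries had 0.0754 CPM, a gap larger than the Dixon limit for 8 values. The 7 members were each examined in this way and 1 was marked. Chance marks about 1 in 20 groups where values are spread normally. Dhc16F had reads in only 2 of the 8 mock libraries, so that rate does not hold for it and nothing is read from the mark.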

How the results depend on the processing

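Of 306 fold changes of members under settings that kept all libraries, 290 kept direction and side of the threshold, 5 came to pass it with the same sign and 11 changed sign, 1 of which, Dhc64C in LaminB KD with the length trend removed, also passed it. With 1 library left out, 375 of 405 kept both, 4 came to pass it and 26 changed sign. The cause of the changes was not tested. LaminB KD values chose the family, so nothing is read from the members called in comparisons that hold LaminB KD, whose counts are given as a description.

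With the gene length trend removed, the members called numbered 2 in LaminB KD relative to mock (1 otherwise), 1 for AGO2 KD minus Dcr-2 KD and 1 for LaminB KD minus Dcr-2 KD (Dhc64C, -0.44). The log2 fold changes of Dhc64C and Dhc62B in LaminB KD became -0.14 and -0.14, that of Dhc64C in si5UTR+AGO2 relative to mock -0.0048 and that of btv in Dcr-2 KD 0.01. DESeq2 called 1 member in si5UTR+V966M relative to si5UTR and 1 for LaminB KD minus Dcr-2 KD, where no filter also gave 1. With total counts, Dhc64C averaged 732 CPM in AGO2 KD (746 otherwise) and 804 CPM in the mock libraries of experiment 2 (807 otherwise).

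The replicate numbers gave no clear pairing of the libraries (same-number r -0.080 to 0.057). In experiment 3 same-number pairs were at -0.0020 to 0.045 and other pairs at -0.043 to 0.0052. There the replicate block raised the genes called in Dcr-2 KD from 156 to 281, so pairing in experiment 3 is not settled. With the replicate block, Dhc64C and Dhc62B stood at -0.04 and -0.08 in si5UTR relative to mock and at 0.06 and 0.12 in si5UTR+AGO2 relative to si5UTR. Dhc93AB stood at -0.20 in si5UTR+V966M relative to mock and -1.46 relative to si5UTR, and btv at 0.22 in Dcr-2 KD. The block changed no call of a member.

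With 1 library left out, members called ranged from 1 to 2 for LaminB KD relative to AGO2 KD, and from 0 to 1 for si5UTR+V966M relative to si5UTR and to si5UTR+AGO2 and for LaminB KD minus Dcr-2 KD. In experiment 1, Dhc64C ranged from -0.07 to 0.0026 in AGO2 KD, and in LaminB KD Dhc62B ranged from -0.03 to 0.12 and peg from -0.006 to 0.37. In si5UTR, btv ranged from -0.64 to 2.61 and peg from -0.21 to 0.10. In si5UTR+AGO2, Dhc64C ranged from -0.02 to 0.07, Dhc62B from -0.00089 to 0.09 and btv from -1.42 to 1.83 relative to mock, and Dhc64C from -0.10 to 0.00034 and Dhc93AB from -0.80 to 1.32 relative to si5UTR. In si5UTR+V966M, Dhc93AB ranged from -4.77 to 6.74 and Dhc62B from -0.49 to 0.17 relative to mock, from -6.62 to 1.06 and from -0.63 to 0.03 relative to si5UTR, and from -7.17 to 0.86 and from -0.53 to 0.13 relative to si5UTR+AGO2. In Dcr-2 KD, Dhc93AB ranged from -0.06 to 0.88 and btv from -0.56 to 2.24. Differences of effects ranged from -0.02 to 0.94 (Dhc93AB, AGO2 KD minus Dcr-2 KD), -0.16 to 0.03 (Dhc64C, LaminB KD minus Dcr-2 KD) and -5.45 to 0.007 (Dhc93AB, AGO2 KD minus si5UTR).

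Counts over all genes called moved by over 1.5 times in these cases. In si5UTR 107 became 68 at 0.05, 219 with no filter and 199 with DESeq2, and in Dcr-2 KD 156 became 62, 374 and 314, and 281 with the replicate block. In si5UTR+AGO2 relative to mock 13 became 43 with no filter, 43 with DESeq2, 6 with only the 2 groups and 28 with the block, and in si5UTR+V966M 55 became 163, 140, 7 and 96. Relative to si5UTR, si5UTR+AGO2 gave 55, or 119 with no filter and 87 with DESeq2, and si5UTR+V966M gave 23, or 71, 113, 9 at 0.05, 10 with the length trend removed, 4 with only the 2 groups and 49 with the block. For si5UTR+V966M relative to si5UTR+AGO2, 14 became 87, 86, 9, 2 and 57 (no filter, DESeq2, 0.05, only the 2 groups, block). With the length trend removed AGO2 KD minus Dcr-2 KD gave 109 (341 otherwise, 528 with DESeq2) and LaminB KD minus Dcr-2 KD 478 (956 otherwise), and AGO2 KD minus si5UTR gave 9, or 141 with no filter and 93 with DESeq2. With 1 library left out, AGO2 KD gave 502 (without AGO2 KD replicate 3) to 1046 (834 otherwise), LaminB KD relative to AGO2 KD 960 (without AGO2 KD replicate 2) to 1607 (1653 otherwise) and Dcr-2 KD 18, without mock replicate 10, to 236. Relative to mock, si5UTR gave 78 (without mock replicate 8) to 233 (without si5UTR+AGO2 replicate 2), against 107 with all libraries, si5UTR+AGO2 gave 19 (without mock replicate 8) to 82 (without si5UTR+AGO2 replicate 1), against 13, and si5UTR+V966M gave 47 (without mock replicate 8) to 333 (without si5UTR+V966M replicate 3), against 55. Relative to si5UTR, si5UTR+AGO2 gave 55 to 124 (without si5UTR+AGO2 replicate 1), against 55, and si5UTR+V966M gave 32 to 143 (without si5UTR+V966M replicate 3), against 23. Relative to si5UTR+AGO2, si5UTR+V966M gave 16 to 304 (without si5UTR+V966M replicate 3), against 14. AGO2 KD minus Dcr-2 KD gave 158 (without mock replicate 10) to 425, against 341, LaminB KD minus Dcr-2 KD gave 613 (without mock replicate 10) to 1044, against 956, and AGO2 KD minus si5UTR gave 2 (without AGO2 KD replicate 2) to 66 (without AGO2 KD replicate 1), against 9. Dhc93AB, Dhc36C, Dhc16F, Dhc98D and btv are limited by depth.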

Other observations

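Dhc98D, an axonemal heavy chain gene, had its few reads mainly in mock cells. The 15 treated libraries held 6 of its 46 reads, in 2 libraries, and the 8 mock libraries held 40, in 5 libraries. Pooled, this is 0.0395 CPM in treated libraries and 0.507 CPM in mock libraries. It was noticed after the values were seen, the gene was too low to be tested, and mock replicate 8 and mock replicate 10 held 12 reads each, while 3 mock libraries had 0.

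Dnah3, an axonemal heavy chain gene outside the 7, had 8 to 15 reads in AGO2 KD and 0 to 5 in LaminB KD, against 0 to 2 in mock of experiment 1, and was not tested there for its low counts.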
